A study of Mus musculus with 10 samples.

Results

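Nuclear receptors and cholesterol efflux genes were examined in mouse microglia, the resident macrophages of the brain. The group held 9 genes of 20720 autosomal protein-coding genes: the liver X receptors Nr1h3 (LXRα) and Nr1h2 (LXRβ), the retinoid X receptors Rxra and Rxrb, the peroxisome proliferator-activated receptors Ppard and Pparg, the transporters Abca1 and Abcg1, and the receptor Lrp1. They were chosen by name, with earlier results of these data known, and 2 readouts were taken for each. The first was the H3K4me3 peak, if any, within 1 kb of a transcription start (mm10) in each of 2 replicate libraries. The second was the set of PLAC-seq interactions with an anchor bin of 5 kb that held a start. H3K4me3 is a histone mark of active promoters, and PLAC-seq is proximity ligation with enrichment, here by an H3K4me3 antibody, so that it reads DNA contacts of marked chromatin. All libraries used came from brains of wild-type C57/Bl6 mice, from cells labelled CD45+ CD11b+ CX3CR1+ and sorted as whole cells. The mice are wild type for the Sall1 enhancer and carried no added agent according to the labels, which give no age; the study's methods state that adult males of this strain were used. There were 2 H3K4me3 libraries, 2 inputs and 2 PLAC-seq libraries that the authors combined in 1 list, and 4 Hi-C libraries, 2 wild-type and 2 knockout, were not analysed here. Thus no genotype or treatment was compared. With 2 libraries against 2, an exact permutation test could not go below p = 0.333, so values are described and not tested.

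Liver X receptors sense oxysterols, and the receptors for fatty acids of the PPAR family work beside them. Both kinds bind DNA as heterodimers with RXR, typically at direct repeats of the hexamer AGGTCA, with 4 bases between the copies for LXR and 1 base for PPAR. Liver X receptors induce Abca1 and Abcg1, which pass cholesterol from macrophages to apolipoproteins and lipoprotein particles. Lrp1 is a large endocytic receptor that takes up lipoproteins carrying APOE. In microglia this circuit handles the cholesterol of engulfed myelin and debris.

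CpG content of the promoter sequences differed between starts with H3K4me3 in both replicates and starts without. RefSeq windows of 300 bases (GRCm38.p6, 250 before to 50 after a start) were matched for 8 of the 9 genes, in 13 windows, with no entry for Abcg1. The first 4 lines below show starts with and without a peak in both replicates, with CpG dinucleotides in capitals. The last shows the Abca1 promoter, with the best direct repeat of AGGTCA with 4 bases between in capitals. All are written 5′ to 3′ on the strand of the gene. The Nr1h2 window is chr7:44553916-44554215 (minus strand, peak), the Nr1h3 window chr2:91195067-91195366 (minus strand, no peak in replicate 2), the first Pparg window chr6:115360894-115361193 (plus strand, peak), the downstream Pparg window chr6:115421816-115422115 (plus strand, no peak) and the Abca1 window chr4:53159846-53160145 (minus strand, peak).
Nr1h2: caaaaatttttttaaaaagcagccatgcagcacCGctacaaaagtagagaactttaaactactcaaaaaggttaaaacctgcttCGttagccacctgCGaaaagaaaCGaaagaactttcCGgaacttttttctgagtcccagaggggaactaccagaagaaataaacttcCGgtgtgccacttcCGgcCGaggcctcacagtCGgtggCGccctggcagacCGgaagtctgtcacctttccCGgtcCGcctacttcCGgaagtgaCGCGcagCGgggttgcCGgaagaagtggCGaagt
Nr1h3: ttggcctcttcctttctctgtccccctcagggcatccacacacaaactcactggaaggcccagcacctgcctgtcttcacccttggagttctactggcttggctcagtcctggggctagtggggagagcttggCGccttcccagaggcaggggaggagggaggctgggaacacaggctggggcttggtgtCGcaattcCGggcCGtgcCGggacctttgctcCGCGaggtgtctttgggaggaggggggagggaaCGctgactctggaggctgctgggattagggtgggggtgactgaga
Pparg, first start: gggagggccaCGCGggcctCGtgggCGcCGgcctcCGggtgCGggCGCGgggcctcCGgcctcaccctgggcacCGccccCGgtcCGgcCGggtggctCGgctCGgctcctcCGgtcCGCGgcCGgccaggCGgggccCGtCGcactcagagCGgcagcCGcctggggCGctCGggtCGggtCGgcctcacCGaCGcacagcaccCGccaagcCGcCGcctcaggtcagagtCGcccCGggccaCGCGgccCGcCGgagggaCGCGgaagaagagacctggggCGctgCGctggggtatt
Pparg, downstream start: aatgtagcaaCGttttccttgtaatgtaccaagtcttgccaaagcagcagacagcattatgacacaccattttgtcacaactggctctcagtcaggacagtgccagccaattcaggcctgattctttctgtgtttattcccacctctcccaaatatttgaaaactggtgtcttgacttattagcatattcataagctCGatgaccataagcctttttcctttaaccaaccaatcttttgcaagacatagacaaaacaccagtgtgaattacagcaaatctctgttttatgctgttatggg
Abca1: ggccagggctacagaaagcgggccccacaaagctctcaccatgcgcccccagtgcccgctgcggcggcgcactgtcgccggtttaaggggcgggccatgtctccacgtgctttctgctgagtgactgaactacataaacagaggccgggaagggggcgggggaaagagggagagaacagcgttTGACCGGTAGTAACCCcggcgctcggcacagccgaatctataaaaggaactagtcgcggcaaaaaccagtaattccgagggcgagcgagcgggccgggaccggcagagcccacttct

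The Nr1h2 window held 19 CpGs, at a ratio of observed over expected CpG of 0.988. The Nr1h3 window printed above held 8, at a ratio of 0.277, although its G+C content of 63.0% was above the 50.7% of Nr1h2. The other Nr1h3 window held 10, at a ratio of 0.394 and a G+C content of 62.7%. The first Pparg start held 44 CpGs at 0.909, while the downstream start, that of the PPARγ2 isoform best known from fat cells, held 2 at 0.170. All 7 member windows above a ratio of 0.75 and the 1 between 0.5 and 0.75, that of Lrp1, had a peak in both replicates. None of the 5 windows below 0.5 did, namely both of Nr1h3, the internal start of Rxra and both later starts of Pparg. The Nr1h3 windows overlap each other and had a peak in replicate 1. The second Pparg window was unmarked only by the 1 kb limit. The annotated start at 115362292 lay 1028 and 1084 bp from a peak, and the window's own start, 115362349, lies slightly farther. The same gradient ran through all 19167 windows of autosomal coding genes. Peaks in both replicates were found at 8.22% of windows under 0.25, 34.3% of those from 0.25 to 0.5, 80.4% of those from 0.5 to 0.75 and 94.6% of those above. The members therefore followed the general relation between CpG content and the mark, given here as a description.

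**Figure D1:**
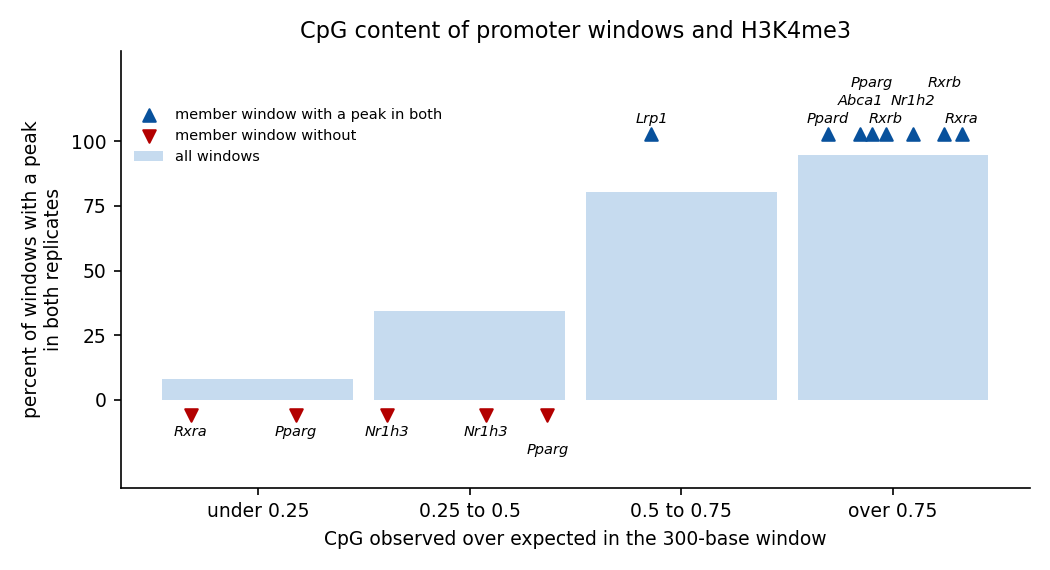
Percent of RefSeq promoter windows of 300 bases with an H3K4me3 peak within 1 kb in both replicates (bars, all 19167 windows), by CpG observed over expected. Triangles place the 13 windows of the members by their own ratio; the 8 windows with a peak point up and lie to the right of 0.5, and the 5 without point down and lie to the left.

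The windows were searched for receptor motifs. The hexamer AGGTCA, searched on both strands, occurred in 14.4% of all windows and in 3 of the 13 member windows, the internal start of Rxra and the first and second starts of Pparg. A direct repeat of it with 4 bases between and at most 2 mismatches in the 12 repeat letters occurred in 2.68% of all windows and in no member window. At most 3 mismatches, a limit added after the sequences had been seen, gave 20.1% of all windows and 3 member windows. One of these was Abca1, where the matching strand reads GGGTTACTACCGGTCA from 67 to 52 bases before the start. The LXR element known from the Abca1 promoter is a repeat of this kind, and binding was not measured here. The repeat with 1 base between and at most 2 mismatches occurred in 3.39% of all windows and in 1 member window, the unmarked internal start of Rxra; at most 3 mismatches gave 22.8% of all windows and still that 1 member window. The GC box GGGCGG, which binds SP1 family factors and contains a CpG, occurred in 48.3% of all windows and in 8 of the 13. A match is a description of letters, and the searched motifs can overlap each other.

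H3K4me3 was present at 8 of the 9 genes in both replicates, against 59.4% of all autosomal protein-coding genes. Levels are those of the tallest peak within 1 kb of any start, in tags per 10 M mapped tags, and the 8 genes had a median of 297.9 against 220.4 for all 12304 genes with a peak in both replicates. Libraries held 12.8 and 13.4 M tags. All 10 microglia markers examined carried the mark, with levels from 125 to 321, while 2 of 6 neuronal markers did, at no more than 11.7. Markers of astrocytes carried it in 3 of 6 cases up to 20.5, of oligodendrocytes in 2 of 5 up to 186.6 (Olig2 and Mbp), of endothelial and mural cells in 2 of 6 up to 57.7, and of blood and border myeloid cells in 1 of 6 at 13.8. The part of such cells in the values below was not tested. The labels do not say whether the 2 libraries came from separate mice, so their spread may be technical.

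The retinoid X receptors, the shared partners, had the highest means, though their ranges overlapped that of Nr1h2. Rxrb had 350.6 in replicate 1 and 381.2 in replicate 2, above 95.4% of genes with a peak. This level is shared with Slc39a7, whose nearest start lies 150 bp away, and cannot be assigned to 1 of them. Rxra, the second retinoid receptor, had 314.7 and 370.7. Nr1h2, the broadly expressed liver X receptor, had 326.4 and 354.3. Ppard, the broadly expressed PPAR, had 335.0 and 299.1. Each range overlapped that of the next gene in this order, and those of Rxrb and Ppard did not overlap. All 4 lay above the levels of at least 85.6% of genes with a peak.

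**Figure D2:**
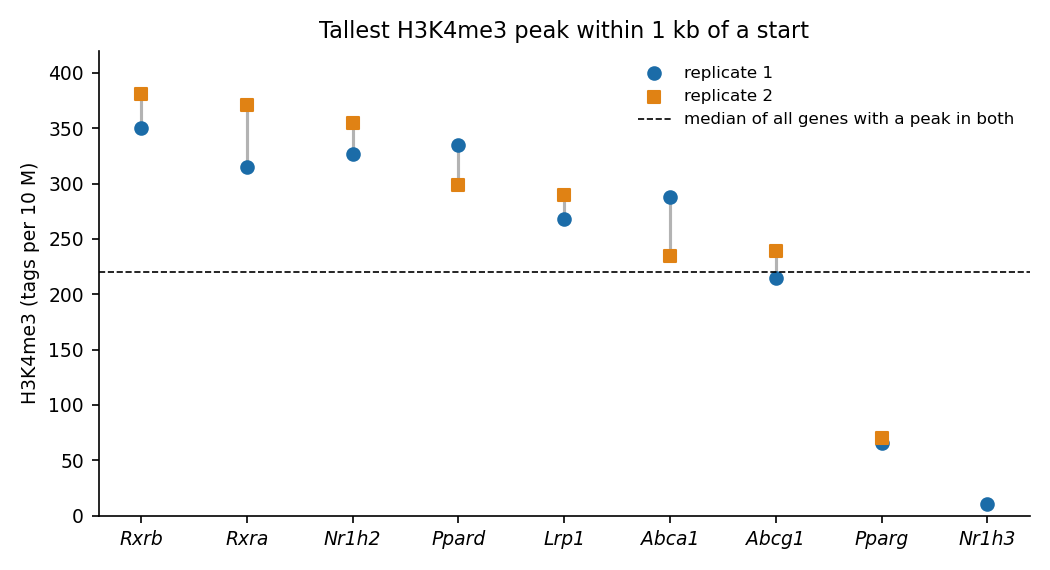
H3K4me3 at the tallest peak within 1 kb of a start, in tags per 10 M, for each gene in replicate 1 (circles) and replicate 2 (squares), with the median of all genes with a peak in both (dashed line, 220.4). Gray lines join replicates; the 4 receptors on the left reach 299.1 or more in both, Pparg stays near 70 and Nr1h3 has a single point at 10.1.

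By the tallest peak, the efflux and uptake genes followed. Lrp1 had 268.0 and 289.4, below both values of Ppard. Abca1 had 287.5 and 234.2, and Abcg1 had 215.0 and 239.4. Neighboring ranges among these 3 overlapped. Abcg1 lay at the middle of the genome-wide distribution, above 52.5% of genes with a peak, and Abca1 above 66.5%. Both transporters were thus marked at common promoter levels, and their ranges overlapped.

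Pparg carried little of the mark. Its values were 65.4 and 70.1, both below all values of the 7 genes above it and above only 16.5% of genes with a peak. The peak lay 221 and 163 bp into the gene from the first start, at position 115360951 of chromosome 6. A later start, 115362292, was 1028 and 1084 bp from the nearest peak. The PPARγ2 start at 115422066 had no peak within 1 kb in either replicate. H3K4me3 at Pparg was therefore found at the CpG-rich first promoter and not within 1 kb of the other starts.

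Nr1h3 was the single gene of the group without the mark in both replicates. Replicate 1 held a peak of 13 tags at its coding starts, a level of 10.1 (95% exact Poisson interval 5.38 to 17.3, counting error only) and 5.31-fold over input, near the lowest fold of 4.09 in that file. Replicate 2 held none, the nearest peak being 7787 bp from the closest coding start. For scale, the 2 neuronal markers with the mark had means of 9.16 and 11.7. Noncoding transcripts of Nr1h3 are annotated at 4 other starts, and the farthest upstream, that of Nr1h3-207 at 91202834, lies 75 bp from a start of Acp2, a lysosomal acid phosphatase gene on the opposite strand. Peaks of 211.1 and 183.5 lay within 104 bp of it. These peaks cannot be told apart between the pair, and with starts of all transcript types the count became 9 of 9. The genes on the 2 sides, Acp2 and Madd, were marked at 211.1 and 183.5 and at 274.2 and 261.8, while the coding starts of Nr1h3 between them were low. In replicate 1, where both liver X receptors had a peak, Nr1h2 had 419 tags and Nr1h3 had 13.

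Replicates were close for the marked genes. The log2 ratio of replicate 2 over replicate 1 ranged from -0.30 for Abca1 to 0.24 for Rxra. In absolute size all 8 were below 0.31, the SD of the ratios over all genes with a peak. The median of those ratios was 0.06, and Abca1 lay more than 1 SD below that median. Replicate 2 was higher in 6 of the 8, against 59.8% of all such genes. Among the 28 pairs of the 8 genes, ranges overlapped in 7. Input tags at the tallest peak were at most 2.8 except at Nr1h2 in replicate 2, with 7.7 against a 99th percentile of 5.6 in that file, and at Lrp1 in replicate 1, with 4.3. The fold over input was still 61.9 and 80.4 there.

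The arrangement of peaks differed among the genes. Peaks have 1 fixed size in these files, 184 and 188 bp, so breadth shows as a number of peaks. At least 2 peaks within 1 kb in both replicates were found at Rxra, Rxrb and Lrp1, 3 of the 8 genes, against 29.6% of genes with a peak. At Rxra a smaller peak of 113.0 and 151.4 stood before the start and the tall one after it. At Rxrb the pair was nearly even, with 271.1 and 323.7 before the start. Those peaks also lie within 1 kb of a start of Slc39a7, a zinc transporter gene whose nearest start is 150 bp away, and cannot be assigned to 1 of the 2. Lrp1 had a second peak of 187.8 and 142.5 and, in replicate 2 alone, another of 91.7. Abca1 had a single peak centered 473 and 458 bp into the gene, the farthest of the single peaks. When all peaks within the window were summed, the mean of both replicates was 663.3 at Rxrb, 489.7 at Lrp1 and 474.9 at Rxra. Nr1h2 and Ppard, with a single peak each, stayed at 340.35 and 317.05. The order of the tallest peaks therefore did not hold, since Lrp1 then lay above Rxra, Nr1h2 and Ppard.

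**Figure D3:**
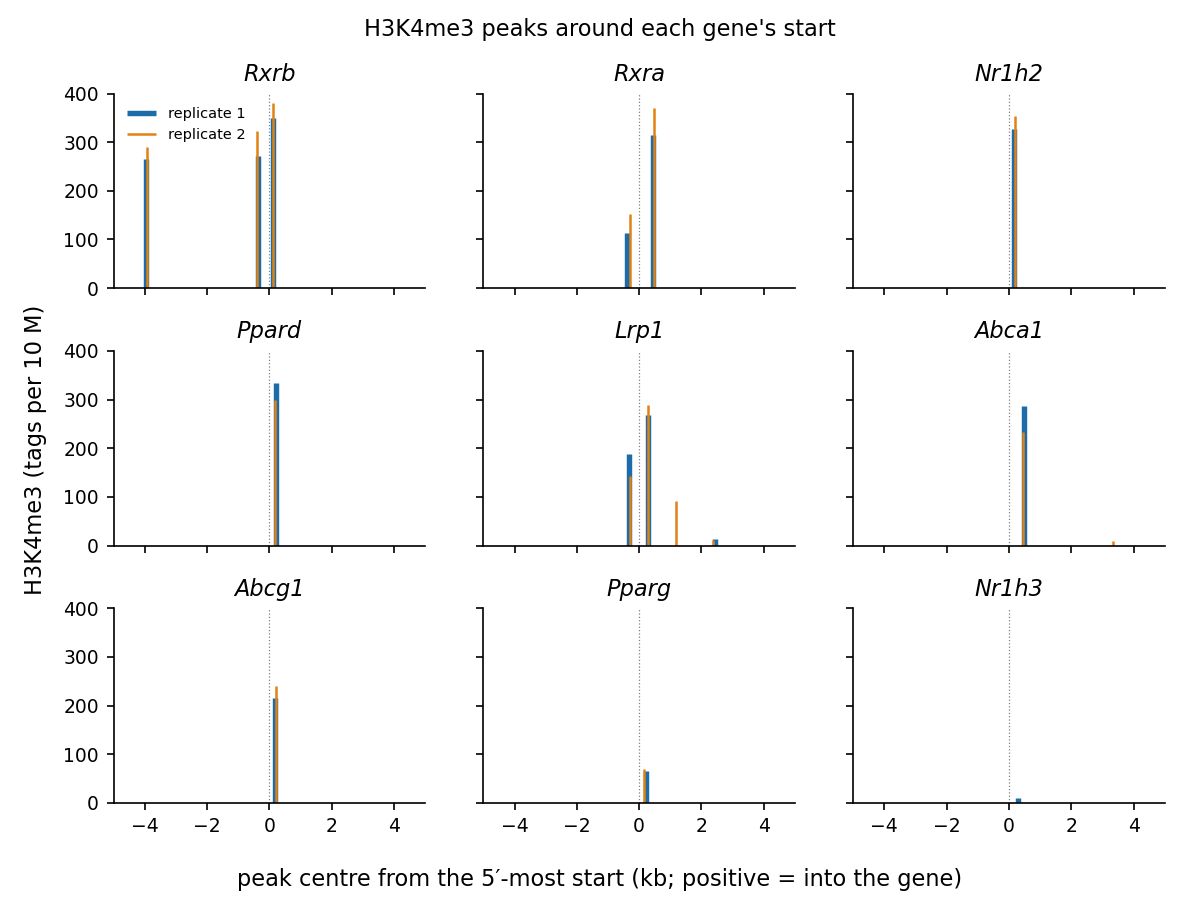
H3K4me3 peaks within 5 kb of the 5′-most coding start of each gene, in replicate 1 (thick) and replicate 2 (thin lines); height is tags per 10 M and position is the peak center, positive into the gene. Rxra, Rxrb and Lrp1 have peaks on both sides of the start, the outer peak at Rxrb lies near the start of H2-Ke6, and Nr1h3 has 1 low peak in replicate 1.

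At least 1 PLAC-seq interaction was found for 6 of the 9 genes, against 24.7% of all autosomal protein-coding genes. Among genes with H3K4me3 in both replicates these were 5 of 8, against 37.8%. The 9 genes had 16 of the 26689 listed interactions, and the 8 with the mark a mean of 1.88 against 1.35 over all genes with the mark, with at most 5 per gene against a highest count of 38. Since both libraries were combined, interactions have no replicate, and intervals of read pairs over expected cover counting error only. The depth of PLAC-seq is unknown, so a gene with no listed interaction was not detected at this depth.

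Rxra had 5 interactions of the bin chr2:27675001-27680000, the most by this rule. Its rank did not hold under other rules: with at least 20 read pairs it had 2 and Ppard and Lrp1 had 4 each, and with neighboring bins it had 5, Ppard 6 and Lrp1 7. Of these, 3 ended in its own gene, 45, 75 and 85 kb downstream of the start. The contact at 45 kb, in an intron, had 30 read pairs against 8.74 expected, a ratio of 3.43 (95% interval 2.32 to 4.90). The other pair ended in intergenic DNA 110 and 120 kb upstream, and the one at 120 kb had the highest ratio of the 16, 4.48 (2.56 to 7.28, 16 read pairs against 3.57, false discovery rate 8.41e-05). None of these 5 partner bins held an H3K4me3 peak or a coding start.

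Ppard had 4 interactions, all downstream. The strongest reached the bin with the start of Fance, a Fanconi anemia DNA repair gene, 80 kb away, with 32 read pairs against 7.51 expected, a ratio of 4.26 (2.91 to 6.01) and a false discovery rate of 5.57e-09, the lowest of the 16. That bin carried H3K4me3 at 299.2 and 287.2, beside 335.0 and 299.1 at Ppard, so this was a contact between a pair of marked promoters. The others ended at 65 kb, near the end of Ppard itself, and at 75 and 85 kb, on both sides of the Fance start. All 4 belonged to a cluster of 16 neighboring interactions that also held Def6.

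Lrp1 had 4 interactions in 1 cluster of 8, which also held Stat6, a transcription factor gene of interleukin signaling. Of these, 3 ended within Lrp1, at 10, 45 and 55 kb, and 1 lay 10 kb upstream. The contact at 45 kb had 25 read pairs against 5.77 expected, a ratio of 4.34 (2.81 to 6.40). The contacts at 10 kb had more read pairs, 39 and 30, at lower ratios of 2.16 and 2.40. Bins of Lrp1 that hold no coding start added 8 further interactions, the most of the 9 genes.

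The remaining contacts were single. The start bin of Abcg1 met a bin 45 kb upstream in Umodl1, with 30 read pairs against 8.14 expected, a ratio of 3.69 (2.49 to 5.26); Umodl1 itself carried no H3K4me3 peak. The start bin of Rxrb, shared with Slc39a7, met the start of H2-K1, a class I major histocompatibility gene, 30 kb upstream, with 27 read pairs against 12.3, a ratio of 2.19 (1.45 to 3.19). H2-K1 carried 297.6 and 338.6, so this was the second contact of marked promoters. Nr1h3 met a bin 10 kb upstream in Acp2 with 41 read pairs against 19.5, a ratio of 2.10 (1.51 to 2.85). This was the largest number of read pairs and the lowest ratio of the 16. The Nr1h3 bin of that contact held no peak. The partner bin, which lies within Acp2 and holds no coding start, held 17.9 and 29.1. One start of Nr1h3 lies 34 bp from the edge of its bin, and its count was 5 with neighboring bins and 0 with bins that the authors annotate with Nr1h3.

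**Figure D4:**
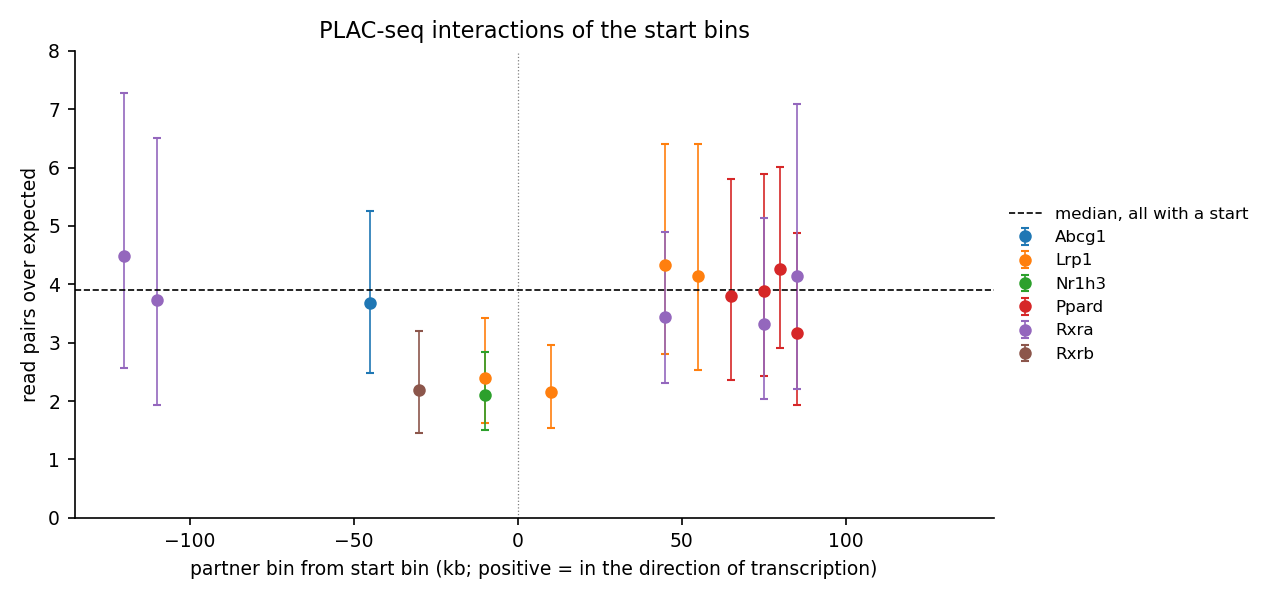
Read pairs over expected for the 16 interactions of the start bins, by distance of the partner bin from the start bin in kb (positive in the direction of transcription). Bars are 95% exact Poisson intervals of the read pair count, and the dashed line is the median of all interactions with a coding start, 3.91; the contacts at 10 and 30 kb lie lowest, at ratios from 2.10 to 2.40.

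Abca1, Nr1h2 and Pparg had no interaction at a start bin, but their surroundings differed. The start of Abca1 lies 105 bp from the edge of its bin. The next bin upstream, which the authors annotate with Abca1, met a bin 35 kb farther upstream with 33 read pairs against 8.84, a ratio of 3.73 and a false discovery rate of 5.94e-08. The count of 0 for Abca1 therefore depended on the bin border, since with neighboring bins it was 2, and this ratio was close to the 3.69 of Abcg1. Bins inside Abca1 also met the Slc44a1 bin, at a ratio of up to 6.08. At Pparg the nearest anchor lay 120 kb from a start bin, and 7 interactions passed over its first start. For Nr1h2 the nearest anchor lay 465 kb from the start bin, and no interaction passed over the start. Of the 48 other coding genes up to that distance, 27 carried H3K4me3 and 2 had an interaction. Hence a marked promoter, at 326.4 and 354.3, and a listed contact did not go together at Nr1h2, while Nr1h3, by the rule used here, had a contact and a mark of 10.1 in replicate 1 alone.

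The 16 interactions were short. Their median span was 60 kb (10 to 120 kb), against 125 kb (10 to 995 kb) for 14781 interactions with a coding start, of which 49.3% spanned at most 120 kb. The median ratio was 3.71 against 3.91, and the median count 23.5 read pairs against 18. Of the 16, 10 lay downstream and 6 upstream, and 7 ended in the gene of origin. Coding starts lay in both bins in 2 of 16 (12.5%), against 9.44%. Of the 14 with a start in 1 bin, 1 partner held H3K4me3 in both replicates (7.14%), against 10.6%. Apart from span, these values lay near those of all interactions with a start, and 3 genes supplied 13 of the 16.

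Most genes of the wider pathway were marked, and so were 59.4% of all autosomal protein-coding genes. The lowest share of a group was 66.7%, in other lipid ABC transporters. H3K4me3 in both replicates was found for 16 of 19 other nuclear receptors, 14 of 15 coregulators, 15 of 18 LXR target genes, 11 of 13 PPAR target genes, 21 of 21 genes of cholesterol synthesis and SREBP processing, 23 of 25 genes of cholesterol uptake, trafficking and storage, and 10 of 15 other lipid ABC transporters. Medians of the marked genes ran from 152.1 for LXR targets to 268.8 for coregulators, against 297.9 for the 8 genes. Interactions were found for 7, 5, 9, 3, 7, 8 and 4 genes of these groups in the same order. These shares ran from 23.1% for PPAR targets to 50% for LXR targets, against 24.7% of all autosomal protein-coding genes. Among the marked genes of each group, the share with an interaction was 43.8% (7 of 16) for other nuclear receptors and 53.3% (8 of 15) for LXR targets, above the 37.8% of all marked genes. It lay below that in the other 5 groups, at 27.3% to 35.7%. The 7 other nuclear receptors became 3 with false discovery rates limited to 0.0001, 4 with at least 20 read pairs and 5 with 1 interaction per cluster. The 9 LXR targets became 7, 8 and 7. The genome-wide share under these limits was not computed.

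**Figure D5:**
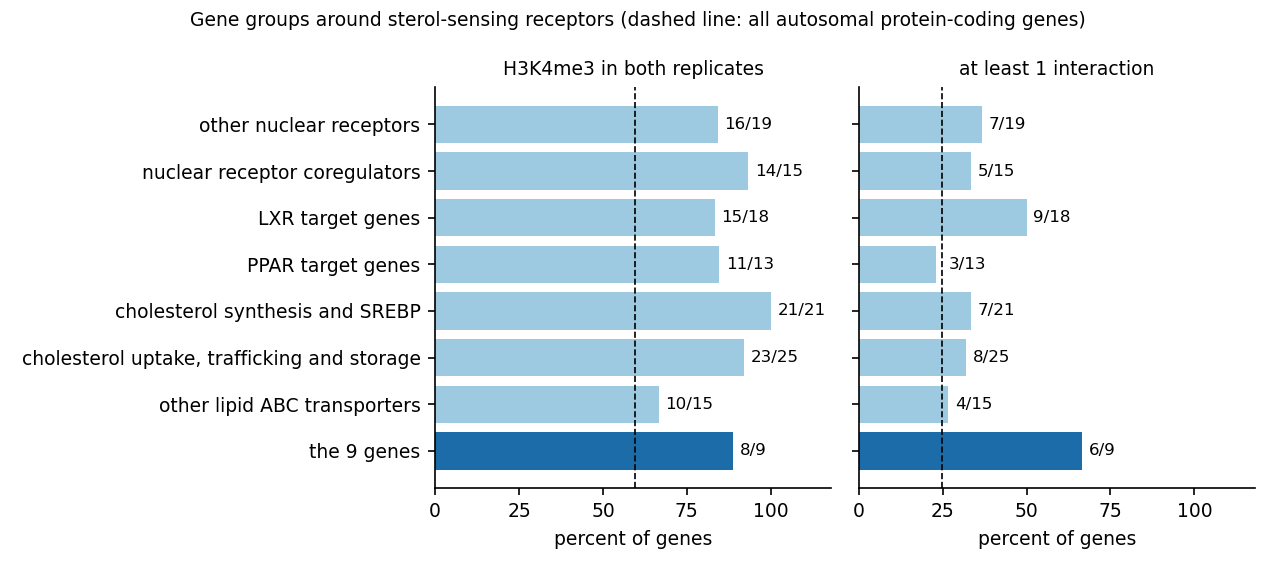
Percent of genes with H3K4me3 in both replicates (left) and with at least 1 interaction (right) in 7 gene groups and in the 9 genes; labels give counts and dashed lines the share of all autosomal protein-coding genes, 59.4% and 24.7%. Every group lies above the line on the left, and PPAR targets lie just below it on the right; these groups consist mostly of marked genes, of which 37.8% have an interaction genome-wide.

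Among LXR targets, Arl4c and Mylip had 21 interactions each, more than any of the 9 genes. Arl4c, a small GTPase gene tied to cholesterol transport, had H3K4me3 of 414.5 and 456.5 and a best ratio of 12.6 at 140 kb. Mylip, which encodes the ubiquitin ligase that degrades the LDL receptor, had 306.2 and 273.0 and a best ratio of 12.2 at 360 kb. Srebf1, the regulator of lipid synthesis, had 261.8 and 252.1 and no interaction, and neither did Tgm2, with 148.0 and 162.6. The targets Abca1 and Abcg1 had 0 and 1 at their start bins.

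Coregulators with the most interactions were the acetyltransferase gene Ep300, with 11 and levels of 480.7 and 470.7, and the coactivator gene Ncoa3, with 8 and levels of 353.7 and 434.1. The corepressor gene Ncor1, which binds unliganded receptors, had 311.6 and 323.7 and none, and Ncoa2 had 312.4 and 349.8 and none. Other receptors reached 3 interactions at most, for Thrb and Rarg. Nr2f6 and Nr2c1 had none, at levels above 314. In cholesterol synthesis, Sqle had 6 interactions at low levels of 114.5 and 107.4, and Msmo1 had 5 at 302.3 and 235.0. Hmgcs1 and Mbtps1 had none, at 250.1 or more in both replicates. In uptake and storage, Scarb2 had 5 and Nceh1 had 4, while Lrp5 and Soat1 had none. Among other transporters, Abca9 had 3 and Abca3 had 1, and Abcd3 and Abcb4 had none. Of the PPAR targets, Ucp2 had 2 and Slc25a20 had 1, and the fatty acid oxidation genes Hadha and Acadl had none. Over all genes with the mark, the median level was 210.8 without interactions and 234.5 with 1.

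Genes with the most similar pattern over the 2 libraries and the number of interactions were found by Euclidean distance on the log2 scale. For Abca1 these were Crbn (287.5 and 232.7) and Cdkn2a (289.8 and 235.7), and for Abcg1 Slc25a38 and Dzank1. Nr1h2 was nearest to Sfswap and H2-D1, and Rxrb to Slc39a7, with which it shares its peaks, and Wdfy2. Ppard was nearest to Ska3 and Mrpl57, Pparg to Ifi27 and Cdc20, and Lrp1 to Ccdc142 and Usp34. With 3 measures per gene, such likeness is a description only.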

How the data were processed

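The genes and gene lists were chosen with earlier results of these data known. H3K4me3 peaks were deposited separately for both libraries, with columns of HOMER's peak finder; Bowtie2, HOMER and mm10 are named in the submitters' processing notes. The study's methods describe peak calling for PLAC-seq anchors by another pipeline, so these lists may not be the anchors. The deposited signal of a peak is tags per 10 M, normalized by the authors, and its tag count is a whole number. The authors' fold over input is a ratio, and the input libraries, numbered apart from the ChIP libraries, entered only through it and the input signal scaled by the authors. The deposited focus ratio (a fraction), peak score and p-value, and the authors' −log10 p-value per cluster, were not used for any result. For PLAC-seq, the authors deposited 1 combined list of interactions from MAPS, with a read pair count, an expected count and a false discovery rate (an adjusted p-value) per pair of bins; the list held ratios of at least 2.00, counts of at least 7 and false discovery rates of at most 0.0100.

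Starts came from coding transcripts of the GENCODE M21 basic annotation on the 19 autosomes, so X-linked genes of the lists, such as Tbl1x, Mbtps2, Nsdhl and Ebp, were left out. Marked genes had a peak no more than 1 kb from a start in both replicates. Genes whose starts share a bin share its interactions. Named genes were all 9 genes, the 2 genes of each list with the most interactions, the 2 marked genes with the highest level without one, genes with a start in a contacted or shared bin, and the 2 nearest genes in pattern. Genes named as neighbors were added after values were seen, and some genes that the rule names are not reported here. No test was made. Steps were tested on simulated starts, peaks and pairs. Python 3.11.15, pandas 2.3.3, numpy 2.4.6, scipy 1.17.1 and matplotlib 3.10.9 were used. Alternatives were the window, each replicate alone, other starts, and stricter or wider sets of interactions.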

Additional observations from a re-analysis of the deposited data

How the results depend on the processing

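No paired analysis was possible because there was 1 group and no test. The number of genes with H3K4me3 was 8 or 9 under every alternative run, and the number with an interaction 4 to 7. The median H3K4me3 level of the group was 287.5 to 294.25 with 1 replicate left out, the lower value including Nr1h3 in the group. It was 328.7 with all peaks in the window summed and 278.7 with starts of all transcripts. A level counted as moved when it differed from the main value by more than 1 SD of the gene's 2 replicates. Leaving out 1 replicate cannot exceed that limit, so those levels were unchanged by construction. Of 56 levels of single genes under alternatives, 3 moved, those of Rxra, Rxrb and Lrp1 when peaks were summed. The 16 interactions became 8 with false discovery rates limited to 0.0001, 6 with 1 interaction per cluster and 28 with neighboring bins counted, with a median per gene of 0, 0 and 2 in place of 1. At the stricter rate and with 1 interaction per cluster Nr1h3 and Rxrb lost their only interaction, and with neighboring bins Abca1 gained 2. Rxra had more interactions than Ppard and Lrp1 with 1 per cluster (3 against 1 each) but not at the stricter rate (2, with 3 for Ppard). In the lists, 43 genes with an interaction became 25 at that rate, 28 with at least 20 read pairs and 27 with 1 interaction per cluster. The repeat with 4 bases between was found in 0 member windows at up to 2 mismatches and in 3 at up to 3, a limit chosen after the data were seen. With at least 20 read pairs the strongest contact of Rxra, with 16, was left out, its highest ratio was 3.43 in place of 4.48, and the highest of the group was 4.34, at Lrp1. Counts rest on 2 H3K4me3 libraries and on a PLAC-seq list of unknown depth, where the lowest listed count was 7 read pairs.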
